A study of Mus musculus with 3 samples.

Results

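The genes described here are the mouse genes whose symbol begins with Klhl, Trim, Fbxo, Fbxw or Fbxl followed by a digit, the main gene families that supply substrate-binding parts of ubiquitin ligases, together with the TRIM ligases. The symbols of the array's annotation gave 158 such genes, of 18193 genes with probe sets of 1 symbol. By family there were 33 Klhl, 58 Trim, 32 Fbxo, 18 Fbxw and 17 Fbxl genes. Among them, Fbxl12os is listed by RefSeq as a transcribed pseudogene and was taken in by its symbol. The rule reads the symbol and no measured value.

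The cells were B16, a mouse melanoma line, given doxorubicin at 1 µg/ml in medium with serum and antibiotics and collected at 0, 2 and 4 h; doxorubicin is an anthracycline that poisons topoisomerase II. Each time point was 1 Affymetrix Mouse430_2 array of total RNA, so there was no replicate, no test could be made across cultures, and the number of arrays limits the precision. No untreated culture at 2 or 4 h was analysed here, so drug and culture time cannot be told apart. Per the file headers the 3 arrays were washed in fluidics modules 3, 4 and 1, so module and time cannot be told apart either. The description field of the labels names bone marrow-derived macrophages and a treatment called ET, which the labels do not expand. Pigment cell markers reached a signal of 200 in 14, 13 and 13 of 15 genes at 0, 2 and 4 h, with summed signals of 183919, 186683 and 190280 and median signals of 6576, 2200 and 1196. Macrophage markers reached it in 5, 4 and 4 of 14 genes, with summed signals of 4040, 4998 and 5465; their part in the results was not tested. Of the listed macrophage genes, the scavenger receptor Cd163 was under the signal floor of 100 on every array. The macrophage receptor Csf1r had signals of 522, 424 and 376, Lyz2 372, 414 and 398, Adgre1 302, 197 and 301, and Cd14 215, 268 and 151. Cd68, a lysosomal protein on the same list, had signals of 1884, 3044 and 3699. The rest of the list stayed under 200 on every array.

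A ubiquitin ligase brings a protein to an enzyme loaded with ubiquitin, and a chain of ubiquitin then usually marks that protein for the proteasome. In the cullin-RING ligases a cullin holds the loaded enzyme at its RING end and an exchangeable adaptor at the other. F-box proteins are the adaptors of cullin 1, bound through Skp1, and are sorted by their substrate-binding part into Fbxw (WD40 repeats), Fbxl (leucine-rich repeats) and Fbxo (others). Most Klhl proteins carry a BTB domain, which binds cullin 3, and Kelch repeats, which bind the substrate. Most TRIM proteins carry a RING, B-boxes and a coiled coil in a single chain and act without a cullin. Several short-lived regulators of the cell cycle and of stress signalling are known substrates, among them cyclins, Myc and β-catenin.

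A signal is the deposited intensity after scaling of each array to a trimmed mean of 500, and signals are printed as scaled. For ratios and for the filter, signals under 100 were set to that floor, and a gene passed if its log2 signal averaged at least log2 of 200. The filter passed 85 of the 158 members and left out 73. Those that passed were 18 of 33 Klhl, 24 of 58 Trim, 21 of 32 Fbxo, 10 of 18 Fbxw and 12 of 17 Fbxl genes. Of the 73 dim members, 29 were under the floor on all 3 arrays. The counts below concern the 85 that passed, set beside the 9723 of all genes that passed the same filter. Of the 85, 52 had 1 passing probe set.

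More members lay lower than higher after treatment, and the lower ones became more numerous with time. At 2 h, 8 members had signals lower than at 0 h by 2-fold or more, or 9.41% of the 85, against 5.69% of all genes, and 1 was at least 2-fold higher, against 1.41% of all genes. At 4 h this held for 26 members, or 30.6%, against 14.4% of all genes, and 1 was at least 2-fold higher, against 2.32% of all genes. All 8 members lower at 2 h were also lower at 4 h. At least 4-fold lower at 4 h were 7 members, against 3.1% of all genes. In such bulk RNA, fewer cells of a type and less RNA per cell cannot be told apart. The median log2 ratio of the 85 members was -0.26 at 2 h and -0.56 at 4 h, against -0.01 and -0.07 for all genes. Between the later times, the 4 h signal of 8 members (9.41%) was 2-fold or more below that at 2 h, against 5.41% of all genes. It was 2-fold or more above in 1, Fbxo36, against 0.843% of all genes. The other Fbxo36 probe set was lower at 4 h than at 2 h. In 49 members, or 57.6%, the signal was lower at each later time than before, against 30.9% of all genes. It was higher at each step in 6 members, or 7.06%, against 23.7% of all genes.

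**Figure D1:**
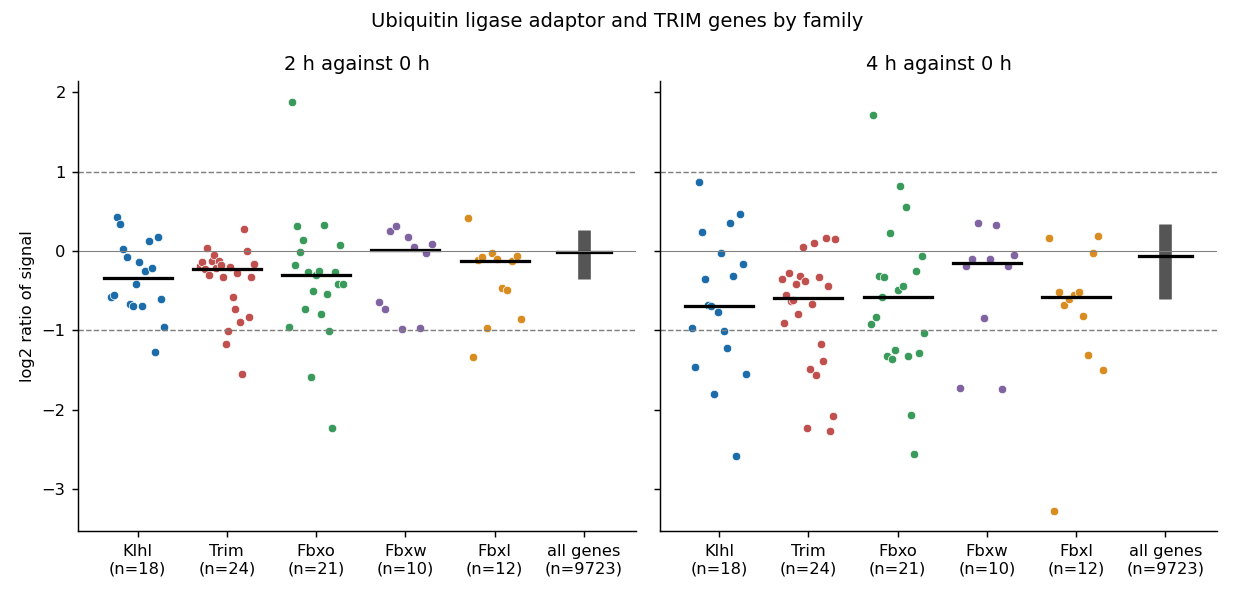
Each point is the log2 ratio of 1 gene at 2 h (left) or 4 h (right) against 0 h, by family. Black lines are medians, the grey bar spans the quartiles of all 9723 genes, and dashed lines mark 2-fold; at 4 h the medians of the Klhl, Trim, Fbxo and Fbxl genes lie between -0.69 and -0.58 and that of the Fbxw genes at -0.15.

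The probe sets of members had a median 0 h signal of 646, against 836 over all genes. Genes of low mean signal were lower more often on these arrays. Members were therefore also set beside genes of like signal, in 4 equal classes of all genes by mean signal over the 3 arrays. That mean includes the 4 h signal, so a lower 4 h signal itself moves a gene toward a dimmer class. The classes are thus not independent of the ratios counted in them. In the dimmest class, 11 of 25 members were past 2-fold lower at 4 h (44%), against 21.4% of the genes there. In the next class, 8 of 34 were (23.5%), against 21.1%, which is near the background. In the next brighter class 5 of 17 were (29.4%), against 11.9%, and in the brightest 2 of 9 (22.2%), against 3%. The median log2 ratio of the members at 4 h was below that of all genes in each class, at -0.82, -0.44, -0.69 and -0.67 from dim to bright, against -0.29, -0.29, -0.08 and 0.28.

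**Figure D2:**
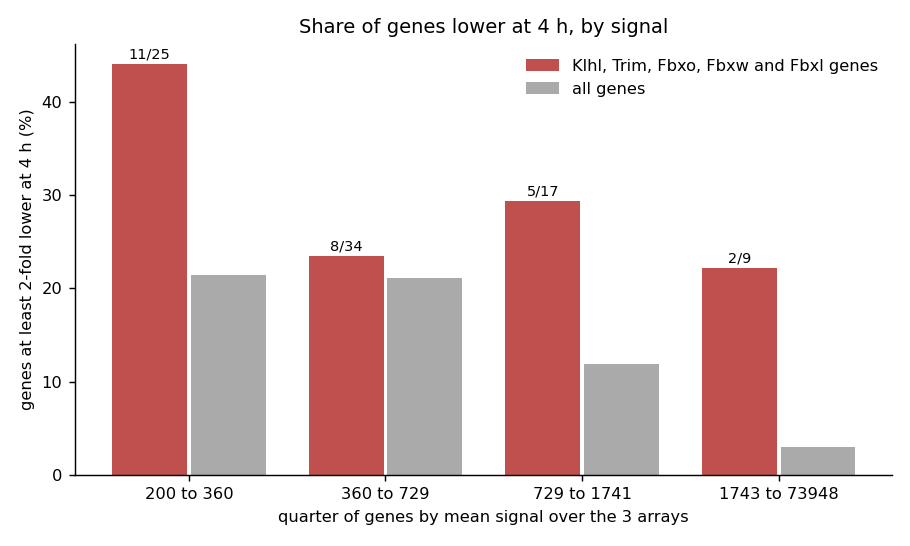
Bars give the percentage of genes at least 2-fold lower at 4 h than at 0 h, for the Klhl, Trim and F-box genes (red, with counts above) and for all genes (grey), in 4 equal classes of all genes by mean signal. The red bar is above the grey one in each class and nearly level with it in the second, at 23.5% and 21.1%.

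The error of a ratio was taken from different probe sets of the same gene, since no arrays were repeated. Their log2 ratios had an SD of 0.47 at 2 h and 0.62 at 4 h over the members, against 0.40 and 0.48 over all genes. This error leaves out differences between cultures and arrays. Among the 26 lower members, 7 had at least 2 passing probe sets; all of these probe sets lay below 0, and in 5 of the 7 members each was past 2-fold. The 2-fold limit itself ran through a group of close values, with Klhl25 (-1.01) and Fbxo9 (-1.04) just past it. Just short of it were Klhl11 (-0.97), Fbxo11 (-0.92) and Trim11 (-0.91). The other Klhl11 probe set was at 0.07 at 4 h.

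Of the 21 Fbxo genes 8 (38.1%) were 2-fold or more lower and 1 higher at 4 h, against 14.4% and 2.32% of all genes. The Fbxo median log2 ratio was -0.31 at 2 h and -0.58 at 4 h. Fbxo5, also called Emi1, an inhibitor of the anaphase-promoting complex, had signals of 1178, 250 and 200 at 0, 2 and 4 h. It was 4.71-fold lower at 2 h and 5.9-fold lower at 4 h, so nearly all of the difference was present by 2 h. Fbxo30, a muscle ligase subunit in mice, was likewise low early, with signals of 661, 219 and 258 and ratios of -1.59 and -1.36. Fbxo46 had signals of 464, 229 and 111, and was 2.02-fold lower at 2 h and 4.19-fold lower at 4 h.

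The other 5 lower Fbxo genes were less than 2-fold lower at 2 h and passed it at 4 h. Fbxo7, linked to the proteasome and to hereditary parkinsonism in humans, had signals of 4617, 3463 and 1896 (-1.28 at 4 h). Fbxo31, which directs cyclin D1 to degradation after DNA damage, had signals of 574, 406 and 241 and a ratio of -1.25 ± 0.26 (SD over 2 probe sets). Fbxo28 had signals of 988, 597 and 393 (-1.33 ± 0.38, SD over 3 probe sets). Fbxo45, which works with the large neuronal ligase Mycbp2, was at -1.32 ± 0.47 (SD over 2 probe sets), and Fbxo9 was at -1.04 ± 0.13 (SD over 2 probe sets). In the probe sets that stand for these 5 genes the signal was lower at 2 h than at 0 h and lower again at 4 h. The other Fbxo9 probe set was higher at 2 h (0.25) and lower at 4 h (-0.86).

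Fbxo2 was the only one of the 85 members at least 2-fold higher. Fbxo2 encodes a receptor for N-glycans of misfolded glycoproteins and is known mainly from neurons. Its signal was 95.1 at 0 h, just under the floor, and 369 and 327 at 2 and 4 h, at least 3.69-fold and at least 3.27-fold higher. It rested on 1 dim probe set, and with a floor of 200 it was no longer counted. Fbxo36 came next, with signals of 988, 826 and 1739 and a ratio of 0.82 ± 0.33 at 4 h (SD over 2 probe sets). Its other probe set had 176, 293 and 223, so the course over time differed between the 2 probe sets. Fbxo4, a receptor for D-type cyclins, followed with signals of 366, 460 and 535 (0.55). Fbxo22 had signals of 987, 1224 and 795. The other Fbxo22 probe set had 974, 877 and 779, so the direction at 2 h differed between the 2 probe sets.

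Of the 24 Trim genes 7 (29.2%) were 2-fold or more lower at 4 h and none higher, against 14.4% and 2.32% of all genes. The Trim median was -0.23 at 2 h and -0.59 at 4 h. Trim63, also called MuRF1 and known for the breakdown of muscle proteins, had signals of 654, 369 and 136, 4.8-fold lower at 4 h. Trim32, mutated in a human limb-girdle muscular dystrophy, had signals of 1245, 553 and 265 and was 2.25-fold lower at 2 h and 4.69-fold lower at 4 h. Trim65, which acts on the RNA sensor MDA5, had signals of 422, 337 and 78.1, at least 4.22-fold lower at 4 h, with most of the difference after 2 h.

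Trim33 (TIF1-gamma), a cofactor that acts on Smad4, had signals of 1602, 797 and 572, with ratios of -1.01 and -1.49. Trim59 had 909, 309 and 348, and its ratios were -1.56 ± 0.32 and -1.39 ± 0.39 (SD over 2 probe sets). Its other probe set had 627, 291 and 164, lower at 4 h than at 2 h, so the course after 2 h differed between the 2 probe sets. Trim41 had signals of 547, 329 and 185 (-1.56 at 4 h), and Trim46, which bundles axonal microtubules in neurons, 413, 223 and 183 (-1.18 at 4 h). Trim28 (KAP1), the corepressor of the KRAB zinc finger proteins, had signals of 15348, 14042 and 12332, with ratios of -0.13 ± 0.12 and -0.32 ± 0.07 (SD over 2 probe sets). Trim24, a relative of Trim28 and Trim33 that acts on p53, had signals of 548, 500 and 356 and a ratio of -0.62 ± 0.92 at 4 h (SD over 2 probe sets). The other Trim24 probe set was above 0 at 4 h (0.67). Of this group of nuclear cofactors, Trim66 did not pass the filter.

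Trim35 and, in its brightest probe set, Trim44 were lower by less than 2-fold. Trim35 had signals of 4512, 3935 and 2830 (-0.67 ± 0.07 at 4 h, SD over 2 probe sets), and Trim44, which lacks the RING domain, 3696, 3040 and 2943 (-0.33 ± 0.30, SD over 3 probe sets). The other Trim44 probe sets were above 0 at 4 h (0.12 and 0.23). The highest Trim genes at 4 h were Trim60 (0.16), Trim8 (0.15 ± 0.48, SD over 3 probe sets) and Trim37 (0.10 ± 0.28, SD over 5 probe sets). The other Trim8 probe sets were below 0 (-0.79 and -0.16). Trim37, a regulator of centrosome duplication, had signals of 2037, 1361 and 2182, lowest at 2 h in the probe set that stands for it. Trim2, a ligase for neurofilament light chain, was at -0.28 ± 0.61 (SD over 5 probe sets), within its own spread.

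Innate immunity Trim genes were mostly too dim to read. Of 12 listed, 3 passed, namely Trim65, Trim21 and Trim26, with a median of -0.63 at 4 h. Of the 3, 1 was 2-fold lower, against 14.4% of all genes. Trim21, a cytosolic antibody receptor, had signals of 400, 325 and 258 (-0.63 ± 0.03, SD over 2 probe sets). Of a list of 4 Trim genes linked to p53, which leaves out Trim24, Trim8 and Trim32 passed. The other 2 on it, Trim13 and Trim39, had signals of 460 and 347 at 0 h and were under the floor at 2 and 4 h. Of 3 muscle Trim genes on the array, Trim63 alone passed, and the listed clock F-box gene on the array did not pass.

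Of the 18 Klhl genes 6 (33.3%) were 2-fold or more lower at 4 h and none higher, against 14.4% and 2.32% of all genes. The Klhl median log2 ratio, -0.34 at 2 h and -0.69 at 4 h, was the lowest of the 5 families at each time. With quantile normalization, however, the Trim median was lower at 4 h (-0.40, against -0.37 for Klhl). Klhl42, which directs the microtubule-severing enzyme katanin to degradation in human cells, had signals of 598, 246 and 76.9, lower by 2.43-fold at 2 h and by at least 5.98-fold at 4 h. Klhl21 and Klhl9 are cullin 3 adaptors that act on Aurora B in human mitosis. Klhl21 had signals of 1308, 811 and 376 (3.48-fold lower at 4 h), and Klhl9 2002, 1033 and 683 (2.93-fold lower). Klhl12, which acts on the COPII coat protein Sec31, had 1187, 809 and 429 (2.77-fold lower). Klhl26 had 2299, 1922 and 987 (2.33-fold lower), with most of the difference after 2 h, and Klhl25 had 646, 401 and 320 (-1.01 ± 0.86, SD over 2 probe sets).

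Klhl13 works in the same cullin 3 complex as Klhl9 but lay on the opposite side. Klhl13 had signals of 1233, 1653 and 2245, with ratios of 0.42 ± 0.20 and 0.86 ± 0.58 (SD over 2 probe sets), the highest of the Klhl family. Its other probe set was at 0.05 at 4 h, so the size of the difference depended on the probe set. Next were Klhl5 (0.46) and Klhl28 (0.35). Klhl22, an adaptor for Polo-like kinase 1 in human cells, had signals of 3980, 2989 and 2328 (-0.77). Of the 8 listed cullin 3 adaptors of mitosis and trafficking all passed. At 4 h 4 were past 2-fold lower, against 14.4% of all genes, and the median was -1.12, against -0.07 for all genes. This list was chosen with earlier results of these data known, so the counts only describe it.

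The Fbxw genes were the family nearest to all genes, with medians of 0.01 at 2 h and -0.15 at 4 h. At least 2-fold lower at 4 h were 2 of 10 (20%), against 14.4% of all genes. Fbxw11, or beta-TrCP2, the receptor for phosphorylated β-catenin and IκB, had signals of 5332, 3399 and 1616, 3.3-fold lower at 4 h (-1.72 ± 0.26, SD over 3 probe sets). Fbxw7, the receptor for cyclin E, Myc, Jun and Notch, had 393, 200 and 117, 3.34-fold lower at 4 h. Fbxw7 was the only passing member with a signal of 200 or more on 1 array alone, the one at 0 h, and with a floor of 200 it was no longer past 2-fold. Fbxw8, the partner of cullin 7, had 3156, 3096 and 2758 (-0.19 ± 0.20, SD over 3 probe sets). Fbxw2 had 400, 497 and 512 (0.36 ± 0.34, SD over 4 probe sets), Fbxw5 was at 0.33 and Fbxw9 at -0.05. Fbxw22 had signals of 2420, 1223 and 1349 (-0.84 at 4 h). Fbxw22 and Fbxw16 lie with related genes on chromosome 9, where RefSeq places 9 of the 18 Fbxw genes, and hybridisation to relatives was not tested for their probe sets.

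Among the 12 Fbxl genes 3 (25%) were 2-fold or more lower at 4 h and none higher, against 14.4% and 2.32% of all genes. That lower share is near the 21.4% of genes in the dimmest signal class. The Fbxl medians were -0.12 at 2 h and -0.58 at 4 h. Fbxl14, a receptor for Snail-family transcription factors, was the lowest of all 85 members. Its signals were 969, 385 and 25.1, lower by 2.52-fold at 2 h and by at least 9.69-fold at 4 h. Fbxl5, the iron-sensing receptor for iron regulatory proteins, had 515, 367 and 207 (2.49-fold lower at 4 h), and Fbxl8 had 386, 213 and 136 (2.83-fold lower, but under 2-fold with a floor of 200). Fbxl17, which removes mispaired BTB dimers, had signals of 1095, 1035 and 680 (-0.69 ± 0.75, SD over 2 probe sets). The other Fbxl17 probe set was above 0 at 4 h (0.37). Fbxl15 was at -0.52, Fbxl20 at -0.51 ± 0.36 (SD over 3 probe sets), Fbxl6 at -0.03 and Fbxl12 at 0.16. Across the F-box families, 6 genes were listed for the cell cycle, and all passed. Of these, 4 were past 2-fold lower at 4 h (Fbxo5, Fbxo31, Fbxw7 and Fbxw11), against 14.4% of all genes, and the median was -1.49, against -0.07 for all genes. Fbxw7 was not past 2-fold with a floor of 200. The median 0 h signal of the list was 484, and 21.4% and 21.1% of the genes in the 2 dimmest signal classes were lower. The list was chosen with earlier results of these data known, so the counts only describe it.

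**Figure D3:**
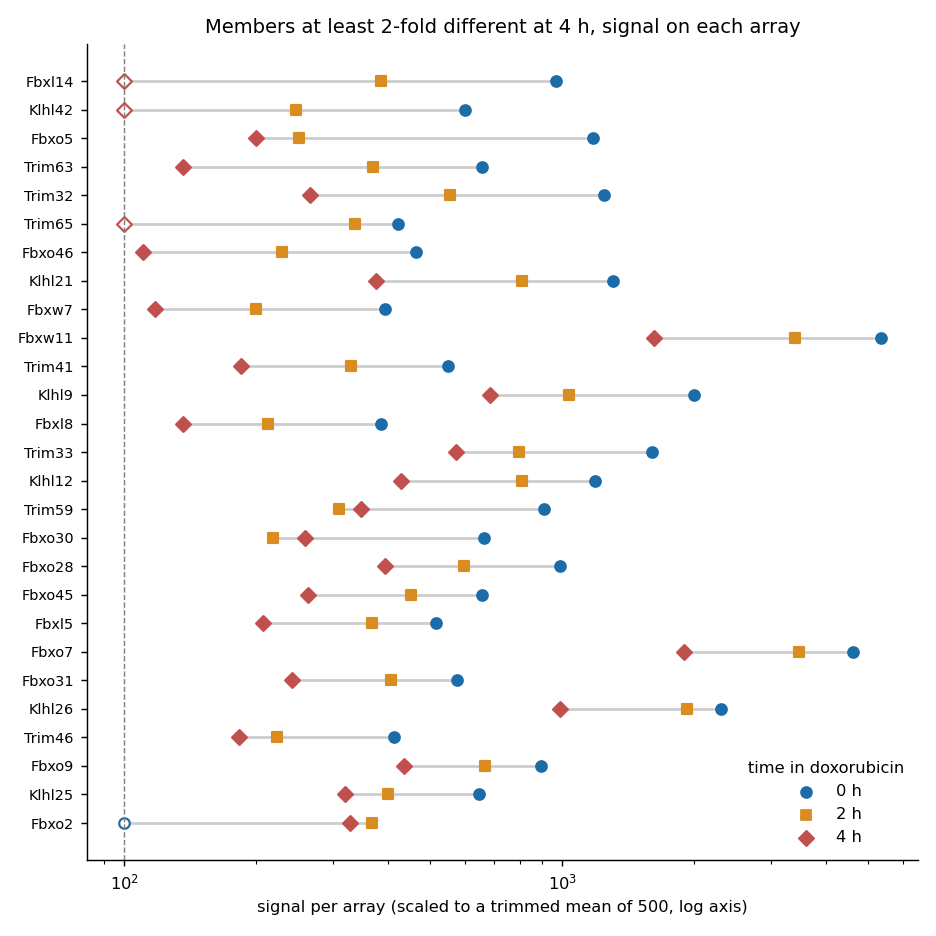
Signals on a log axis at 0 h (circles), 2 h (squares) and 4 h (diamonds) for the 27 members at least 2-fold different at 4 h, ordered by ratio. Open symbols at the dashed line are signals under the floor of 100; Fbxo2, at the bottom, is the only member with its 0 h symbol at the left.

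Probe sets of the same gene did not always give the same answer. Of the 33 members with at least 2 passing probe sets, 12 had probe sets on both sides of 0 at 4 h. Fbxl7 had the widest disagreement of these, with 0.19 for the probe set of higher mean log2 signal and -2.69 for the other. In Trim27, a RET fusion partner in human tumours, the brightest of 4 probe sets had signals of 4183, 3597 and 2406 and a ratio of -0.80, while the 4 probe sets ran from -3.66 to -0.32. Of these 4 probe sets, 3 have a suffix that marks probes shared with other transcripts, the lowest among them. At 2 h the Trim27 probe sets lay between -1.96 and 0.38. No call is drawn from Fbxl7 or Trim27.

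**Figure D4:**
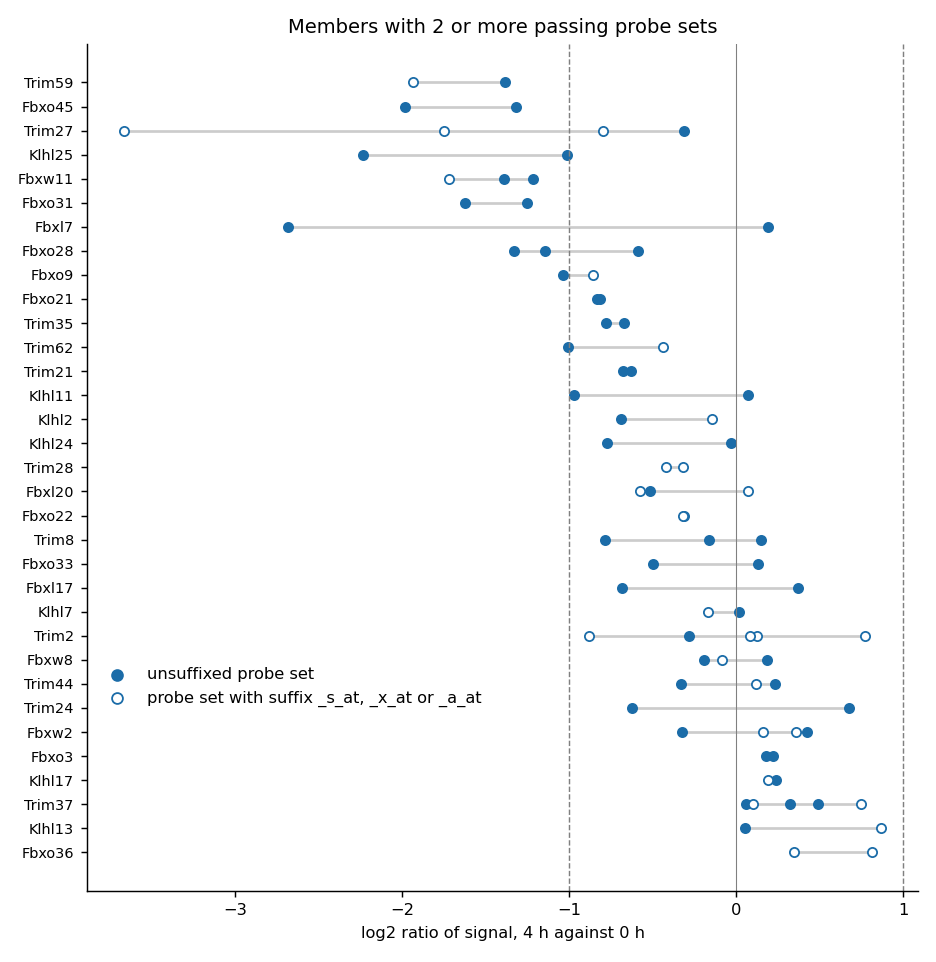
Log2 ratios at 4 h against 0 h of every passing probe set of the 33 members with at least 2. Open circles have a suffix for shared or variant sequence and dashed lines mark 2-fold; Trim27 (-3.66 to -0.32) and Fbxl7 (-2.69 to 0.19) spread widest.

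The promoters below are shown for the lowest member of each family at 4 h with a single start in the RefSeq promoter table, and for Fbxo2, the higher member. They are the 250 bases before the start in build GRCm38.p6, read 5′ to 3′ along the gene. Capitals mark the motifs searched on both strands, which were the CCAAT box, the TATA box TATAAA, the GC box GGGCGG, the E-box CACGTG, the CRE word TGACGTCA and the E2F-type words TTTCGCGC or TTTGGCGC or TTTCCCGC. A CCAAT box on the other strand appears as ATTGG and a GC box as CCGCCC.
Klhl21 (chr4:152008641-152008890, plus strand): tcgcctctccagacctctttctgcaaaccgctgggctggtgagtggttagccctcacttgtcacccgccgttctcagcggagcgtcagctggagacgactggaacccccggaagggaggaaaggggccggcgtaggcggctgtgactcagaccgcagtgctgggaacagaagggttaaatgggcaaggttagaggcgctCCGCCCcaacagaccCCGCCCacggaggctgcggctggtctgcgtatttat
Trim63 (chr4:134314870-134315119, plus strand): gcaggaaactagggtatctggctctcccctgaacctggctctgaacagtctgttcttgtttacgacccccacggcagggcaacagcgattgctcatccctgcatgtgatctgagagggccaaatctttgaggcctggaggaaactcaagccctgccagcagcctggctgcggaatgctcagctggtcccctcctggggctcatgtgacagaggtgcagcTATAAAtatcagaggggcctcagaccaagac
Fbxo5 (chr10:5805466-5805715, minus strand): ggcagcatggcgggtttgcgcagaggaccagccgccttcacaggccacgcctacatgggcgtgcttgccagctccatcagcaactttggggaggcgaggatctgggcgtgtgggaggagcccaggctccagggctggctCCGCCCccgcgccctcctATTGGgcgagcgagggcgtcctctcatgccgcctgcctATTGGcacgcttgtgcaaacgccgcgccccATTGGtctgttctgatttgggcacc
Fbxw11 (chr11:32642305-32642554, plus strand): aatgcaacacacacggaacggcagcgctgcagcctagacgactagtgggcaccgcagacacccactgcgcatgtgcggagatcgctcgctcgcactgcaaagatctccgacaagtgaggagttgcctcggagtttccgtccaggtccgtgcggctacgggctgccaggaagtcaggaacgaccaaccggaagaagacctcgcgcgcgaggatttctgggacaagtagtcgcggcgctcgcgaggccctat
Fbxl14 (chr6:119479418-119479667, plus strand): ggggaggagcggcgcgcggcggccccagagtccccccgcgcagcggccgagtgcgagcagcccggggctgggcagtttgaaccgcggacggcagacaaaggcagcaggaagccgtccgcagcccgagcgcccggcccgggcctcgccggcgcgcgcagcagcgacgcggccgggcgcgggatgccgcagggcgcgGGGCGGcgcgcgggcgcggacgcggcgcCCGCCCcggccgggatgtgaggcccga
Fbxo2 (chr4:148160418-148160667, plus strand): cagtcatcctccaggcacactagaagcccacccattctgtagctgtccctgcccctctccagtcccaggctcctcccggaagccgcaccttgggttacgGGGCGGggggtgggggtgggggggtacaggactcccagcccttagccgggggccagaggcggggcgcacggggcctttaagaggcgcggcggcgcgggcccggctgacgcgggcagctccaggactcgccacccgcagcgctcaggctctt
The Fbxo5 promoter held 3 CCAAT boxes and 1 GGGCGG box, Trim63 1 TATAAA box, Klhl21 and Fbxl14 2 GGGCGG boxes each, and Fbxo2 1. The Fbxw11 window held none of the motifs. The table held 27 promoters of 20 of the lower members and 65 promoters of 44 other members that passed. CCAAT was in 37% of the first and 24.6% of the second, against 35% of the promoters of all genes that passed and 33.8% of all 32851 promoters. GGGCGG was in 59.3% and 61.5%, against 57.8% and 32.7%. TATAAA was in 3.7% and 1.54%, against 6.56% and 12.4%. CACGTG was in 3.7% and 7.69%, against 8.44% and 6.02%. TGACGTCA was in 3.7% and 3.08%, against 2.61% and 1.55%. The E2F-type words were in 0 of the 27 promoters and in 1.54% of the 65, against 3.01% and 1.53%. With 27 promoters, 3.7% is 1 promoter.

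Gene length was also described, because the rule did not use it. The genomic span had a median of 20.3 kb in the 26 lower members and of 25.6 kb in the 59 others, in assembly GRCm38.p6. Across the 85 members the Spearman correlation of span with the log2 ratio was 0.04 at 2 h and 0.09 at 4 h, against -0.15 and -0.09 over 9710 genes with a span. All points share the same 3 arrays, and genes are not independent replicates.

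The shared machinery of these ligases was counted in the same way. Of the cullin-RING core (cullins, RING subunits, Skp1, elongins, Ddb1 and the exchange factors), 14 of 16 genes passed, and none was 2-fold lower or higher at either time. Cul9 and the RING subunit Rbx1 did not pass. Rbx1 had signals of 24.1, 28 and 16.3, so Rnf7 was the only RING subunit read. The median of the core was 0.18 at 4 h, and it was -0.14 with scaling to spike-ins. The cullin 1 gene Cul1 was at -0.04, the cullin 3 gene Cul3 at -0.20 ± 0.49 (SD over 4 probe sets) and Skp1, which links F-box proteins to cullin 1, at 0.76 ± 0.24 (SD over 2 probe sets). Of 19 passing genes of neddylation and the COP9 signalosome, which switch cullins on and off, only Dcun1d4 was 2-fold lower at 4 h (-1.60). Their median was 0.14, and it was -0.18 with scaling to spike-ins. Among 6 ubiquitin-conjugating enzymes that serve these ligases, Ube2g1 was 2-fold lower at 4 h (-1.57 ± 0.53, SD over 2 probe sets), and the median was -0.17, or 0.14 with equal medians. The median 0 h signal was 2196 in the core and 2150 in the neddylation list. Among all genes 3% of the class of highest signal and 11.9% of the next were 2-fold lower at 4 h, so counts of 0 of 14, 1 of 19 and 1 of 6 are near the background for such signals, and signal and role cannot be told apart here.

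Adaptor and RBCC (TRIM-type) genes under other symbols were also counted. Of 5 F-box genes under other names all lay below 0 at 4 h, against 53.9% of all genes, with a median of -0.97. At least 2-fold lower were 2, against 14.4% of all genes. These were cyclin F (Ccnf), with signals of 1389, 417 and 70.1 and at least 13.9-fold lower at 4 h, and the histone demethylase Kdm2b (-1.55 ± 0.07, SD over 2 probe sets). Btrc, the paralogue of Fbxw11, was at -0.79 ± 0.41 (SD over 2 probe sets), and Skp2, the receptor for the inhibitor p27, at -0.34 ± 0.22 (SD over 6 probe sets). Among 7 passing BTB-Kelch genes under other names, Kbtbd2 (-2.67) and Enc1 (-1.93 ± 0.51, SD over 2 probe sets) were 2-fold lower at 4 h, against the same 14.4% of all genes. Keap1, the adaptor that controls Nrf2, was at -0.17 ± 0.13 (SD over 2 probe sets). Of the RBCC genes under other names, Pml was at -1.26 and Mid2 at -0.14 ± 0.10 (SD over 2 probe sets).

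**Figure D5:**
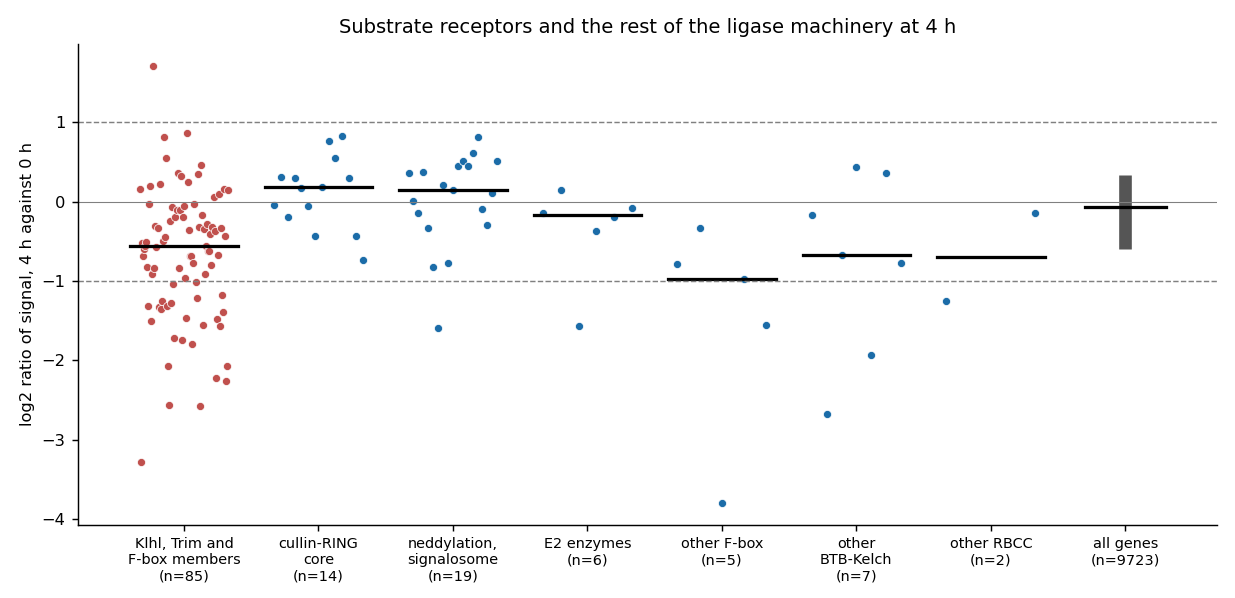
Log2 ratios at 4 h against 0 h of the 85 members (red) and of other ligase genes by list (blue), with medians as black lines and the quartiles of all genes as a grey bar. No gene of the cullin-RING core passes the dashed 2-fold lines, and the members run from -3.28 to 1.71.

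The direction of the medians depended in part on how the arrays were scaled. With equal medians of passing probe sets, the median of all genes moved by 0.16 at 2 h and 0.31 at 4 h, and with scaling to the 18 hybridization spike-ins it moved by -0.22 and -0.32. Relative to all genes, the median of the 85 members at 4 h was -0.49 in the main setting and -0.34 with quantile normalization. Equal medians and spike-ins shift all genes of an array nearly alike. The difference, -0.49 with each of them, could therefore hardly change there. The Klhl, Trim, Fbxo and Fbxl medians at 4 h were below 0 in each of these scalings. The Fbxw median was 0.16 with equal medians and 0.12 with quantile normalization. At 2 h the Fbxl median was 0.04 with equal medians and 0.01 with quantile normalization, and the Fbxw median was -0.20 with spike-ins.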

How the data were processed

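Total RNA of B16 cells was measured on 3 Affymetrix Mouse430_2 arrays, 1 at each time. The deposited values are linear intensities per probe set, and the submitters' processing notes name GCOS 1.4 for them. How GCOS computed the signal is not stated in those notes or the labels. Samples were assigned by their titles. The intensities of an array were multiplied to bring their trimmed mean to 500 (2% trimmed at each end), raised to 100 where lower, and put on a log2 scale. Probe sets passed with a mean log2 signal of at least that of 200, and a gene was read from its brightest passing probe set with 1 symbol. All 284 member probe sets matched a RefSeq gene by Entrez ID.

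With 1 array per time no test or p-value was possible, and genes were counted past 2-fold and set beside all genes. Signals were used to rank and class probe sets by brightness; since probe sets differ in affinity, this ranks signals and not transcript levels. Genes were named if past 2-fold, among the 3 highest, 3 lowest or 3 brightest of a family, with at least 3 passing probe sets, or with probe sets that disagreed. Members and lists were chosen with earlier results of these data known. Promoters came from RefSeq (GRCm38.p6). The alternatives were 11 other settings of scaling, floor, filter, probe set choice and gene symbols. The code (Python 3.11.15, pandas 2.3.3, numpy 2.4.6, scipy 1.17.1) was tested on simulated data.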

Additional observations from a re-analysis of the deposited data

How the results depend on the processing

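No paired analysis was possible because each time point had 1 array and no replicate number. In all 11 alternatives more members were 2-fold lower than higher at 4 h. The alternative that kept the array's own gene symbols could not change the member counts, since no member symbol differed. The lower count at 4 h ranged from 13 with a filter of 400, which leaves 56 members, to 37 with scaling to spike-ins. Of all genes, 11.3% and 22.7% were lower under these settings, against 14.4% in the main setting. Counts that moved by more than 1.5 times were these. With a filter of 400, 3 members were lower and 0 higher at 2 h, 13 were lower and 0 higher at 4 h, and the lower counts at 4 h were 3 for Trim, 4 for Fbxo, 1 for Fbxw and 0 for Fbxl. With a floor of 200, 0 members were higher at 2 h and 0 at 4 h, and 1 Fbxw gene was lower at 4 h. With no filter, 16 members were lower and 2 higher at 2 h, and 13 Trim genes were lower at 4 h. With equal medians, 3 members were higher and 5 Fbxo genes lower at 4 h. With spike-ins, 17 members were lower at 2 h, and 10 Klhl and 5 Fbxl genes were lower at 4 h. The filters change which genes are counted as well as how many. With a filter of 400, 13 of the 26 lower members were still read. The lower share of members was then 23.2%, against 30.6% in the main setting. The cause of these differences between settings was not tested. Of the 26 lower members, 20 remained lower with equal medians, 22 with quantile normalization and 26 with spike-ins. Of the log2 ratios of single members, 1747 moved by less than the SD between probe sets and 39 by more. Many of these could not have moved by more. Equal medians and spike-ins shift the ratios of all genes nearly alike, by less than that SD. The other filters and the array's own symbols left each ratio that was read as it was. The dimmest of 4 signal classes had the largest SD between probe sets, 0.66 at 4 h, against 0.32 in the brightest.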

Other observations

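The 73 members that did not pass the filter included 12 with a signal of at least 200 on 1 array. For 10 of these that array was the one at 0 h. Over whole arrays, 43.4%, 40% and 38.2% of probe sets reached 200 at 0, 2 and 4 h. The same count over all genes that did not pass is not given here, so the 10 cannot be read as a trait of the members. Fbxo10 had signals of 437, 82.5 and 164 at 0, 2 and 4 h, Fbxo34 402, 63.1 and 64.3, and Trim25, an activator of the RNA sensor RIG-I, 258, 84.5 and 33.6. Trim56 had 233, 156 and 114, and Klhl8 had 200, 46.6 and 161. For Fbxl18 and Fbxw19 the array with a signal of at least 200 was the one at 2 h. These genes were chosen for their values, and no ratio is given because most of the later signals are under the floor.

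Of 932 probe sets with several symbols, 7 named a Klhl, Trim or F-box gene. The only one of these at 200 or more on all 3 arrays is assigned to both H2aw and Trim17 and had signals of 1321, 1546 and 1581. It cannot be told which of the 2 genes it measured.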
